A study of Schizosaccharomyces pombe with 18 samples.

Results

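RNA levels of the fission yeast Schizosaccharomyces pombe were compared between 2 strains that lack a protein of the Clr1-Clr2 arm of the SHREC complex (clr1D and clr2D) and 2 strains that lack a protein of its Mit1-Chp2 arm (mit1D and chp2D). Each strain had 3 biological replicates, which gave 6 libraries against 6, and the series holds 18 libraries in all. The members were all genes with at least 1 FPKM (fragments per kilobase of transcript and per 1e+06 fragments) in at least 3 of these 12 libraries, and 6670 of the 7018 genes in the deposited table met this rule. Of these, 6599 met it within each arm taken alone. Of the rest, 57 had fewer than 3 such libraries in the Mit1-Chp2 arm and 20 had fewer than 3 in the Clr1-Clr2 arm, and 6 genes stand in both of these counts. Next to the threshold, the third-highest value was 1.01 FPKM for the valine tRNA gene SPATRNAVAL.02, which was kept, and 0.993 FPKM for the non-coding RNA SPNCRNA.774, which was not.

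The clr1D strain was listed as h- clr1D::KanMX4 with ade6-210/216?, and the clr2D strain as h- clr2D::his7+ with ade6-216; both list arg3D, his3D, leu1-32 and ura4-D18. The mit1D strain was listed as h- mit1D::Natmx6 and the chp2D strain as h- chp2D::KanR, both with the arginine and histidine markers arg3-D4 and his3-D1 and with ade6-210, leu1-32 and ura4-D18. The clr3D strain (clr3D::kanMX6, ade6-210) carries the alleles in the clr form, and wild type carries them in the form of mit1D and chp2D. All 6 strains share the mating type h-, leu1-32 and ura4-D18. Each mutant is 1 strain. Cultures of 25 ml were grown in YES, a rich medium, at 25 °C. The library names place clr1D, clr2D, clr3D and wild type in 1 series and mit1D and chp2D in another. Arm, library series and the listed form of the auxotrophic alleles therefore cannot be told apart in the direct comparison of the arms. Wild type shares the library series with the Clr1-Clr2 arm and the listed alleles with the Mit1-Chp2 arm.

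SHREC represses transcription in the heterochromatin of fission yeast, which lies at centromeres, at the chromosome ends and at the silent mating-type cassettes. Clr3, the catalytic histone deacetylase, is held in the complex with Clr2 and the linker protein Clr1. Mit1 is an ATP-dependent chromatin remodeler, grouped here with the HP1-family protein Chp2, which binds methylated histone H3. Clr1 is annotated as the linker between the modules of the complex, so its loss need not touch the deacetylase side alone. The comparison of the arms asks where the loss of the deacetylase-side proteins and the loss of the remodeler side leave different RNA levels.

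The depth recovered from the FPKM values was 35.3 to 82.8 (in units of 1e+06 reads) in the Clr1-Clr2 arm and 26.2 to 46.5 in the Mit1-Chp2 arm. All levels below are FPKM divided by a library scaling factor, which ran from 0.971 to 1.07. Log2 differences are of log2(scaled FPKM + 1), the Clr1-Clr2 arm minus the Mit1-Chp2 arm, with the SE of a limma fit, and folds are ratios of mean scaled FPKM. The added 1 makes the log2 difference of weak genes smaller than their ratio. The fit has 1 coefficient per strain, so its SEs and p-values measure the spread among replicate cultures of a strain. They do not measure the spread between strains of an arm, of which there are 2. They also take the 6 libraries of the Clr1-Clr2 arm as independent. Same-numbered clr1D and clr2D libraries deviated together, however (correlation 0.54 to 0.72). The SEs and p-values of the arm difference leave this out and are likely too small. An SD with n = 6 covers both strains of an arm. The first principal component held 67.5% of the variance and separated the 6 libraries of one arm from the 6 of the other. The correlation across genes had a median of 0.986 between libraries of different arms, 0.996 between the strains of an arm and 0.997 within a strain.

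The deleted genes were read first. The clr1 level was 2.22 to 2.60 in clr1D libraries and 12.3 to 13.5 in mit1D and chp2D libraries. The mit1 level was 0.00774 to 0.0243 in mit1D libraries, which is 1 to 5 reads, and 13.0 to 13.9 in clr1D and clr2D libraries. The chp2 level was 3.81 to 4.24 in chp2D libraries and 12.5 to 14.4 in clr1D and clr2D libraries. Reads of clr2 were at 14.7 to 15.4 in clr2D, at 26.3 to 27.7 in clr1D, at 18.2 to 20.7 in mit1D and chp2D and at 19.4 to 20.3 in wild type. This gene was lowest in clr2D, but most of its level remained there, so its reads do not by themselves show the deletion. His7, the enzyme gene used as the deletion marker of clr2D, was at 328 to 348 in clr2D, against 139 to 152 in the other strains of both arms, and ura4 was listed at 0 in every library. The levels of clr1, mit1 and chp2 fit the labels of their strains, whereas the label of the clr2D strain is borne out here by its his7 marker and not by a loss of clr2 reads. Arm means of these genes mix a deleted and an intact strain.

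Expression differed between the arms over much of the genome, mostly by small amounts. Of 6670 genes, 3796 (56.9%) were called at an adjusted p under 0.05 (limma, Benjamini-Hochberg, 2-sided), 1914 higher (28.7%) and 1882 lower (28.2%) in the Clr1-Clr2 arm. With FPKM as deposited, without scaling, the split was 2966 higher and 1069 lower, so that 73.5% of calls were higher against 50.4% with scaling. Among the called genes the median absolute log2 difference was 0.16, and 3053 of them (80.4%) differed by less than 1.25-fold. Only 92 genes (1.38%) were called at 2-fold or more, 56 higher and 36 lower in the Clr1-Clr2 arm. Of these, 44 and 34 had at least 1 FPKM in 3 libraries of each arm. The 12 libraries fell into arms without overlap for 2442 genes (36.6%). Genes called in the same direction in all 4 strain pairs and without overlap are named concordant below. There were 1880 of them (28.2%), 923 higher and 957 lower, and 83 (1.24%) differed by 2-fold or more. In a pooled culture, fewer cells expressing a gene and less RNA of it per cell cannot be told apart.

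The differences between strains of the same arm were few. Between clr1D and clr2D, 32 genes were called (0.48%), 7 higher and 25 lower in clr1D. Their same-numbered libraries deviated together, which the fit does not use, so this count may be low. Only 117 of 6670 genes had an unadjusted limma p under 0.05 here. With a block for the replicate number, 33 genes were called. Between mit1D and chp2D, 11 genes were called (0.165%), 6 higher and 5 lower in mit1D. The 4 comparisons across the arms called 2790 genes between clr1D and mit1D (41.8%), 2798 between clr1D and chp2D (41.9%), 2685 between clr2D and mit1D (40.3%) and 2610 between clr2D and chp2D (39.1%). These pairs share libraries and are 4 views of the same 12 cultures. The clr3D strain lay nearer to the Clr1-Clr2 arm, with whose libraries and allele notation it is grouped, in 74 of the 83 concordant genes of 2-fold or more, and nearer to the Mit1-Chp2 arm in 9. Wild type lay nearer to the Clr1-Clr2 arm in 39 of them and nearer to the Mit1-Chp2 arm in 44.

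The genes most clearly higher in the Clr1-Clr2 arm were an adducin-like gene, a pair of non-coding RNAs and a glucose transporter. SPBC1289.14 (II:4412072-4413599), which encodes an adducin domain protein, had a lowest, median and highest level of 23.3, 29.5 and 32.7 in the Clr1-Clr2 arm and of 0.348, 0.463 and 0.524 in the Mit1-Chp2 arm. The mean level was 63.4-fold higher in the Clr1-Clr2 arm, with a log2 difference of 4.33 ± 0.08. All 6 libraries of the Clr1-Clr2 arm lay far above all 6 of the other arm, where 16 to 25 reads stood behind each value. The non-coding RNA SPNCRNA.1122 (III:258116-258797) had 10.7, 12 and 12.9 in the Clr1-Clr2 arm and 0.0551, 0.51 and 0.688 in the Mit1-Chp2 arm, from 1 to 18 reads, which made a 26.3-fold difference in means. SPNCRNA.1299 (III:2448764-2449506) had 16.2, 17.1 and 19.2 in the Clr1-Clr2 arm and 2.06, 2.70 and 3.05 in the Mit1-Chp2 arm, a 6.77-fold difference with a log2 difference of 2.37 ± 0.05. Neither non-coding RNA overlapped between the arms. Some genes named here met the minimum level through 1 arm alone, a selection that favours a difference between the arms. Their levels, folds and tests are given as a description. These genes are SPBC1289.14, SPNCRNA.1122, SPAC186.07c, SPAPB1A11.02, shu1 and Tf2-13, kept through the Clr1-Clr2 arm, and SPAC212.08c, Tf2-10 and SPATRNAVAL.02, kept through the Mit1-Chp2 arm.

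**Figure D1:**
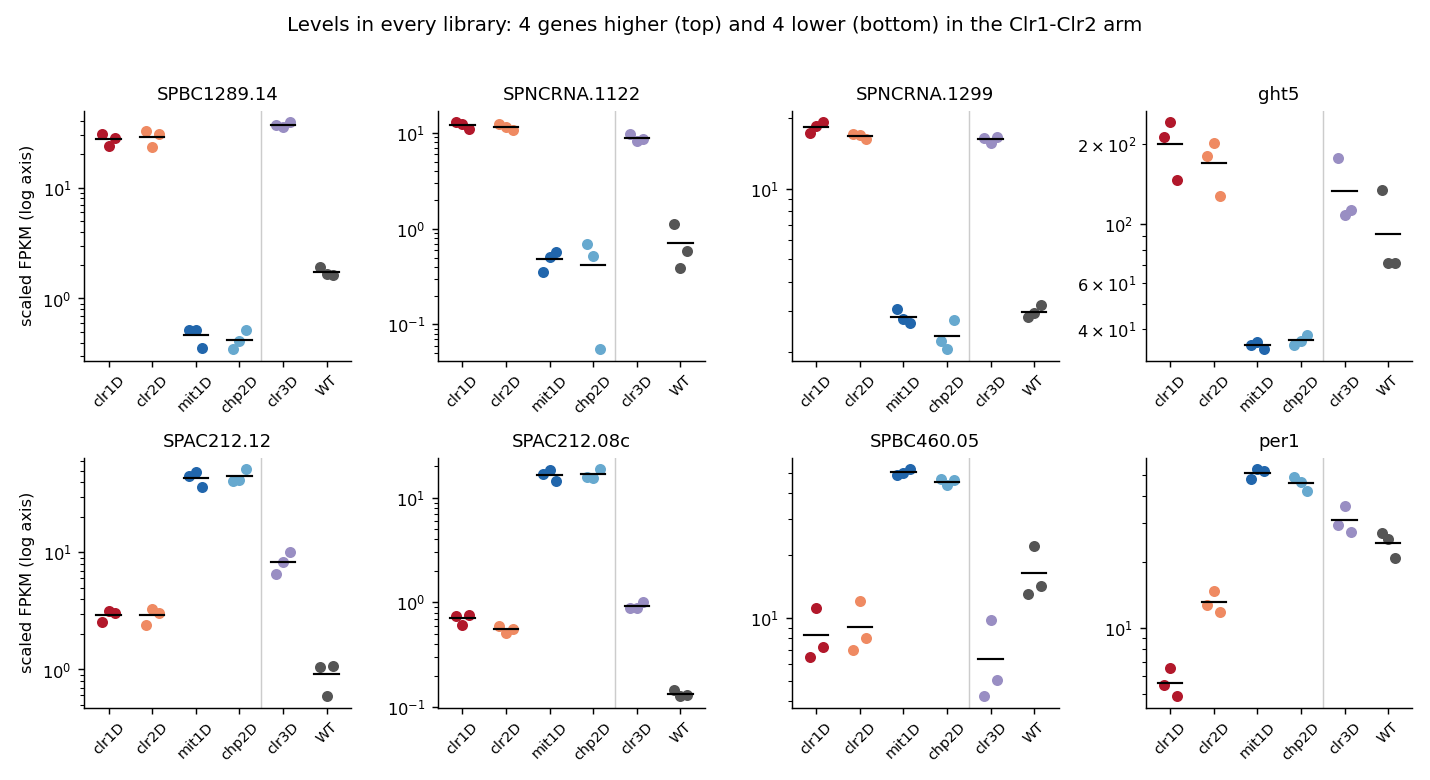
Scaled FPKM on a log axis in each library (points) with the strain mean (black line) for 4 genes higher and 4 genes lower in the Clr1-Clr2 arm; strains run from clr1D and clr2D to mit1D, chp2D, clr3D and WT. For SPBC1289.14 the 6 libraries of the Clr1-Clr2 arm sit between 23.3 and 32.7 and those of the Mit1-Chp2 arm between 0.348 and 0.524, and for SPAC212.12 the order is turned round.

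Ght5 is the high-affinity glucose transporter of the plasma membrane. Its gene (III:212160-214376) had 128, 191 and 243 in the Clr1-Clr2 arm and 33.6, 35.4 and 38.0 in the Mit1-Chp2 arm, with a fold of 5.22, a log2 difference of 2.32 ± 0.17 and an adjusted p of 3.4e-08. The 3 wild-type libraries, at 70.9 to 134, lay above every library of the Mit1-Chp2 arm and reached into the range of the Clr1-Clr2 arm. The hydroxyacid dehydrogenase gene SPAC186.07c (I:5545615-5546613), which lies toward the right telomere of its chromosome, averaged 6.46 ± 0.863 in the Clr1-Clr2 arm and 0.66 ± 0.224 in the Mit1-Chp2 arm (SD, n = 6 each). Its opposite-strand partner prl61 (I:5546205-5546648), a non-coding RNA, averaged 8.01 ± 1.14 in the Clr1-Clr2 arm and 0.885 ± 0.357 in the Mit1-Chp2 arm; the pair overlaps, and reads of one cannot be told from reads of the other. The catechol methyltransferase gene cmt2 (II:64487-65620) had 14.7 to 45.3 in the Clr1-Clr2 arm and 4.74 to 6.65 in the Mit1-Chp2 arm. The esterase gene SPAPB1A11.02 (I:2980428-2981839) averaged 3.33 ± 0.522 in the Clr1-Clr2 arm and 0.287 ± 0.073 in the Mit1-Chp2 arm, and both genes kept the arms apart in all libraries.

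On chromosome III, the short-chain dehydrogenase gene SPCC663.08c (III:1647689-1648808) and the non-coding RNA SPNCRNA.1213 (III:1647025-1649005), which overlaps it, were also among the largest rises, but the strains of the Mit1-Chp2 arm differed. SPCC663.08c had 24.1, 25.9 and 39.0 in the Clr1-Clr2 arm. In mit1D it was at 0, 0.0195 and 0.0311, at most 1 read, and in chp2D at 17.3, 17.3 and 18.4. The neighbour SPCC663.07c averaged 17.2 ± 3.13 in the Clr1-Clr2 arm, 0.222 ± 0.104 in mit1D and 13.8 ± 0.839 in chp2D (n = 6, 3 and 3). The near-absence of reads over this stretch was thus a property of the mit1D strain, and the difference of the arm means rests mostly on it.

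The largest falls lay at the left end of chromosome I, on a sequence the table names T, beside centromere 1 and around abp2. SPAC212.12 (I:15855-16226), which encodes a GPI-anchored protein, had 2.39, 3.03 and 3.27 in the Clr1-Clr2 arm and 36.1, 43.3 and 51.3 in the Mit1-Chp2 arm. The level was 15.1-fold lower in the Clr1-Clr2 arm, with a log2 difference of -3.52 ± 0.11 and an adjusted p of 6.39e-13. Its neighbour SPAC212.08c (I:11784-12994), also annotated as a GPI-anchored protein, had 0.512, 0.597 and 0.765 in the Clr1-Clr2 arm and 14.6, 16.3 and 18.7 in the Mit1-Chp2 arm, a 26.5-fold difference. The arms lay wholly apart for both genes. Wild type averaged 0.907 ± 0.275 for SPAC212.12 and 0.134 ± 0.0104 for SPAC212.08c (SD, n = 3), below every library of either arm.

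On the sequence T, all 5 genes were lower in the Clr1-Clr2 arm. SPBC460.05 (T:16470-18062) had 6.47, 7.65 and 12.1 in the Clr1-Clr2 arm and 43.4, 47.6 and 51.8 in the Mit1-Chp2 arm, a log2 difference of -2.36 ± 0.18 (adjusted p = 4.15e-08). SPBC460.04c averaged 5.19 ± 0.76 in the Clr1-Clr2 arm and 17.9 ± 1.55 in the Mit1-Chp2 arm. The other 3 were 1.30-fold to 1.64-fold lower in the Clr1-Clr2 arm, and all 5 kept the same direction in all 4 strain pairs.

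Left of centromere 1, the lysine synthesis gene lys1 (I:3739076-3743492) had 28.9, 30.5 and 35.0 in clr1D and 129, 130 and 153 in clr2D, against 246, 252 and 273 over the 6 libraries of the Mit1-Chp2 arm (lowest, median and highest). Both strains lay below the other arm, and clr1D lay far below clr2D. The interval of prm1, a conjugation gene, contains lys1, and its values moved with it, at 20.4, 54.7 and 100 in the Clr1-Clr2 arm and 161, 165 and 179 in the Mit1-Chp2 arm. The amino acid permease gene per1 (I:3748767-3751729) had 4.87, 9.18 and 14.8 in the Clr1-Clr2 arm and 42.2, 48.2 and 52.9 in the Mit1-Chp2 arm, 5.17-fold lower with a log2 difference of -2.36 ± 0.08. Between these genes, the overlapping non-coding RNAs SPNCRNA.934 and SPNCRNA.935 averaged 32.9 ± 8.42 and 31.8 ± 8.17 in the Clr1-Clr2 arm, against 96.5 ± 9.22 and 94.4 ± 8.97 in the Mit1-Chp2 arm. The ribosomal protein gene rpl1002, which also lies between them, differed by 1.10-fold.

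Around abp2 on chromosome II, 6 overlapping genes were lower in the Clr1-Clr2 arm. SPNCRNA.1672 (II:4128866-4129750) had 1.33, 1.63 and 2.20 in the Clr1-Clr2 arm and 6.48, 7.22 and 8.41 in the Mit1-Chp2 arm, with a log2 difference of -1.62 ± 0.07 (adjusted p = 6.6e-11). SPNCRNA.113 averaged 5.34 ± 0.22 in the Clr1-Clr2 arm and 16.4 ± 2.16 in the Mit1-Chp2 arm. The abp2 gene itself averaged 5.50 ± 0.472 in the Clr1-Clr2 arm and 13.2 ± 1.38 in the Mit1-Chp2 arm, and cnp3, which encodes the CENP-C homolog of the kinetochore, averaged 14.5 ± 0.322 in the Clr1-Clr2 arm and 23.1 ± 1.91 in the Mit1-Chp2 arm. Wild type was at 8.57 ± 0.36 for SPNCRNA.1672, 11.1 ± 0.442 for abp2 and 22.7 ± 0.509 for cnp3, near the Mit1-Chp2 arm. Since the intervals overlap, these values are not 6 separate changes. A last large fall was that of cbm1 (I:2935116-2937079), a gene for a cellulose-binding domain protein, which had 19.2, 39.8 and 72.5 in the Clr1-Clr2 arm and 117, 129 and 135 in the Mit1-Chp2 arm.

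Set against wild type, the Clr1-Clr2 arm had 1500 called genes (22.5%), 815 higher and 685 lower, and the Mit1-Chp2 arm 2172 (32.6%), 1144 higher and 1028 lower. This fit does not use the pairing of same-numbered libraries, which the first comparison has and the second lacks. With a block for the replicate number the counts were 1850 and 2539. The block also joins wild type with same-numbered mit1D and chp2D libraries, whose deviations had correlations of -0.11 to 0.14 with those of wild type. The first count was 2362 with the library prefix as a random block, a setting chosen after the data were seen. Both comparisons use the same 3 wild-type libraries, and the second crosses the library series. The counts therefore do not rank the arms by their distance from wild type. SPBC1289.14 was higher than wild type in the Clr1-Clr2 arm, by 3.41 ± 0.09 on the log2 scale, and lower in the Mit1-Chp2 arm, by -0.92 ± 0.09. SPNCRNA.1122 differed from wild type by 2.94 ± 0.14 in the Clr1-Clr2 arm and by -0.22 ± 0.14 in the Mit1-Chp2 arm, which did not pass the test (adjusted p = 0.239). SPAC212.12 was higher than wild type in both arms, by 1.04 ± 0.13 in the Clr1-Clr2 arm and by 4.56 ± 0.13 in the Mit1-Chp2 arm. Per1 was lower than wild type in the Clr1-Clr2 arm, by -1.40 ± 0.10, and higher in the Mit1-Chp2 arm, by 0.96 ± 0.10. Cbm1 was lower than wild type in the Clr1-Clr2 arm (-1.90 ± 0.19), and the Mit1-Chp2 arm did not pass the test (-0.11 ± 0.19, adjusted p = 0.685).

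**Figure D2:**
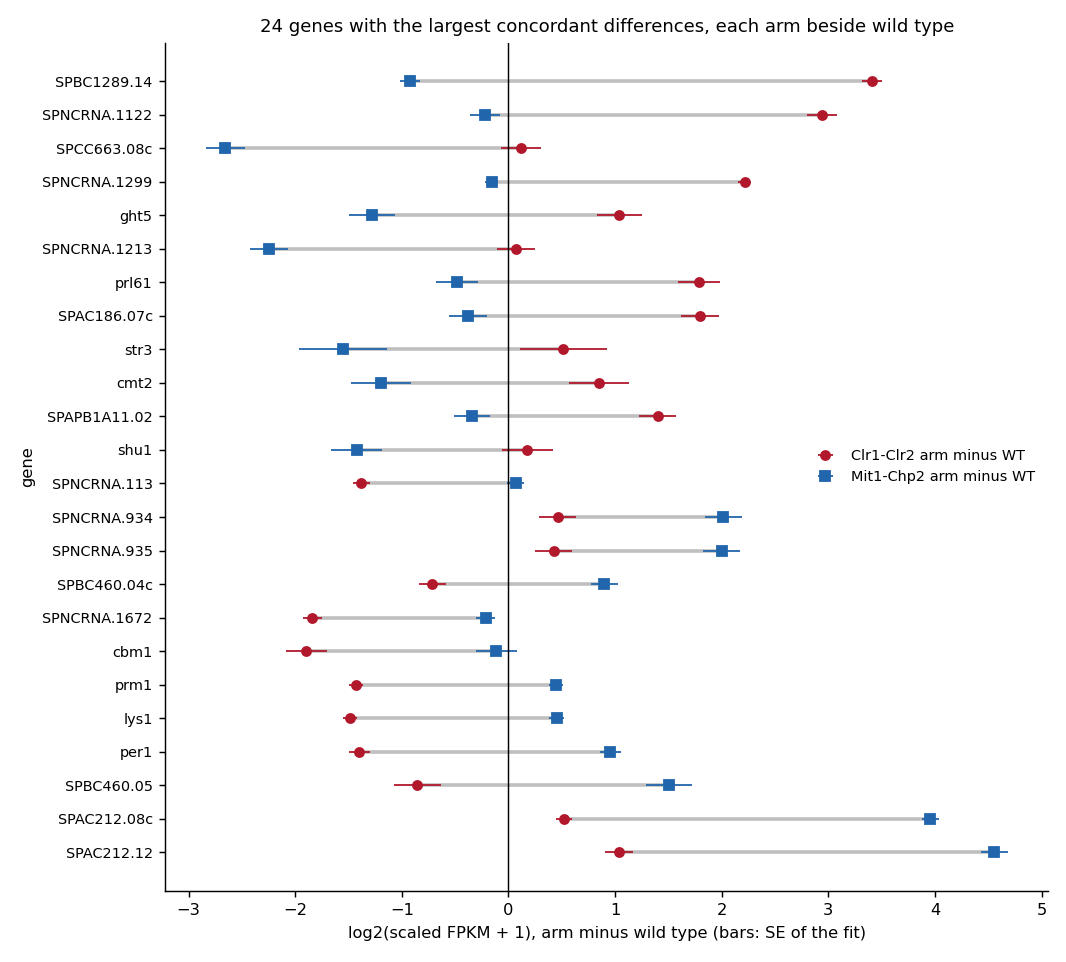
Log2 difference from wild type of the Clr1-Clr2 arm (circles) and of the Mit1-Chp2 arm (squares), with the SE of the fit, for the 12 largest concordant rises and the 12 largest concordant falls between the arms, ordered by the difference between the arms. SPBC1289.14 stands at 3.41 and -0.92, and SPAC212.12 at 1.04 and 4.56.

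Genes of iron and heme uptake were higher in the Clr1-Clr2 arm in most cases. Fission yeast takes up iron by reduction and oxidation at the cell surface, through siderophores and from heme, and the GATA-type repressor Fep1 turns these genes down when iron is ample by binding GATA elements in their promoters. The windows of 3 of these genes are shown because their levels differed most in this group or because they differ in such elements. They hold the 250 bases before the annotated start (RefSeq, ASM294v3), 5′ to 3′ on the gene's strand, with AGATAA and TGATAA on either strand in capitals.
fio1 (I:4234822-4235071, + strand): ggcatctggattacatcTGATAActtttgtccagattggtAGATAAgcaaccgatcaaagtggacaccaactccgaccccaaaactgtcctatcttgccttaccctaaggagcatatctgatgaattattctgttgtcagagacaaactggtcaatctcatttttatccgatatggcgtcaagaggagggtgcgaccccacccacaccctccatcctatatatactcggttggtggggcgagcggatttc
shu1 (I:86279-86528, - strand): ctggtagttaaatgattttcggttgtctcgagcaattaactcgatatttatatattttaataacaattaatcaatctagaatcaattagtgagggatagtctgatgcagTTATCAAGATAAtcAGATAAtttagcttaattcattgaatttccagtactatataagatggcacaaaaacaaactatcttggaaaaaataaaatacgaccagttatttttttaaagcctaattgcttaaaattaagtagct
str3 (I:90290-90539, - strand): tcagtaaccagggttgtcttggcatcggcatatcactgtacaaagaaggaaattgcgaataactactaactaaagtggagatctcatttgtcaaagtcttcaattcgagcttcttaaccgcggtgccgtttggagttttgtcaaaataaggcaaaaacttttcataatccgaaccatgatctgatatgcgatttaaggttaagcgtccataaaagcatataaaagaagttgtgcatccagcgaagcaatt
The fio1 window held 2 such matches, at 233 and 210 bases before the start, and part of it is shared with the divergent gene fip1. The shu1 window held 3, at 141, 135 and 127 bases. The str3 window held 0. Of the 15 listed iron genes, 10 windows held at least 1 match, against 2034 of all 5112 coding-gene windows of the same length (39.8%). The fio1 and fip1 windows hold the same 2 sites. Besides these and shu1, the windows of frp1, str2, php4 and abc3, called higher below, held a match. So did those of fep1 and pcl1, called lower, and of sib3, not called. Those of str3, frp2, str1 and sib2, called higher, and of sib1, not called, held 0. A link between matches and levels was not tested. A match is a run of letters and was not measured as a binding site.

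All 15 iron and heme genes were tested, 14 of which met the minimum level in each arm. In the Clr1-Clr2 arm 11 were called higher (73.3%), 2 lower (13.3%) and 2 were not called, or 10, 2 and 2 of the 14. Over all genes, 28.7% were called higher and 28.2% lower. The median log2 difference was 0.70, against 0.01 over all genes, and 5 reached 2-fold. The siderophore transporter gene str3 had 36.6, 84.4 and 101 in the Clr1-Clr2 arm and 9.19, 18 and 25.0 in the Mit1-Chp2 arm, with a fold of 4.40 and a log2 difference of 2.07 ± 0.33 (adjusted p = 8.95e-05). The ferroxidase gene fio1 had 83.2, 151 and 174 in the Clr1-Clr2 arm and 28.8, 47.4 and 55.0 in the Mit1-Chp2 arm, a log2 difference of 1.57 ± 0.24. Its partner, the iron permease gene fip1, had 83.1, 120 and 169 in the Clr1-Clr2 arm and 39.0, 59.0 and 65.0 in the Mit1-Chp2 arm. For these genes and for shu1, which encodes a heme-binding surface protein, the arms did not overlap. Shu1 had 2.42, 3.35 and 5.12 in the Clr1-Clr2 arm and 0.297, 0.541 and 0.734 in the Mit1-Chp2 arm, from 6 to 19 reads, and was 7.21-fold higher. Of the ferric reductase genes, frp2 was at 8.66 to 12.5 in the Clr1-Clr2 arm and 3.24 to 4.43 in the Mit1-Chp2 arm, a 2.70-fold difference. Frp1 had 10.3 to 25.0 in the Clr1-Clr2 arm and 7.43 to 14.0 in the Mit1-Chp2 arm, with overlap, an adjusted p of 0.0359 and no strain pair called.

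The remaining called rises were those of the transporter genes str1, str2 and abc3, the ferrichrome synthesis gene sib2 and php4, which encodes a repressor of iron-using genes, at 1.13-fold to 1.71-fold. Fep1 was lower, at 41.8, 45.5 and 48.9 in the Clr1-Clr2 arm and 57.0, 57.8 and 62.2 in the Mit1-Chp2 arm, with a log2 difference of -0.35 ± 0.04 (adjusted p = 8.24e-07). The vacuolar iron importer gene pcl1 was 1.22-fold lower, and sib1 and sib3 differed by 1.06-fold and 1.01-fold without a call. Set against the same wild-type libraries, 4 members were called higher and 1 lower in the Clr1-Clr2 arm, with a median of 0.18, and 1 higher and 8 lower in the Mit1-Chp2 arm, with a median of -0.29. The spread in wild type was wide: str3 was at 24.7, 46.5 and 101 in the 3 wild-type libraries and fio1 at 66.0, 109 and 189. In clr1D, clr2D and wild type alike, the library numbered 1 was the lowest for str3 and fio1, and the part of such shared library effects in the difference of the arms was not tested.

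**Figure D3:**
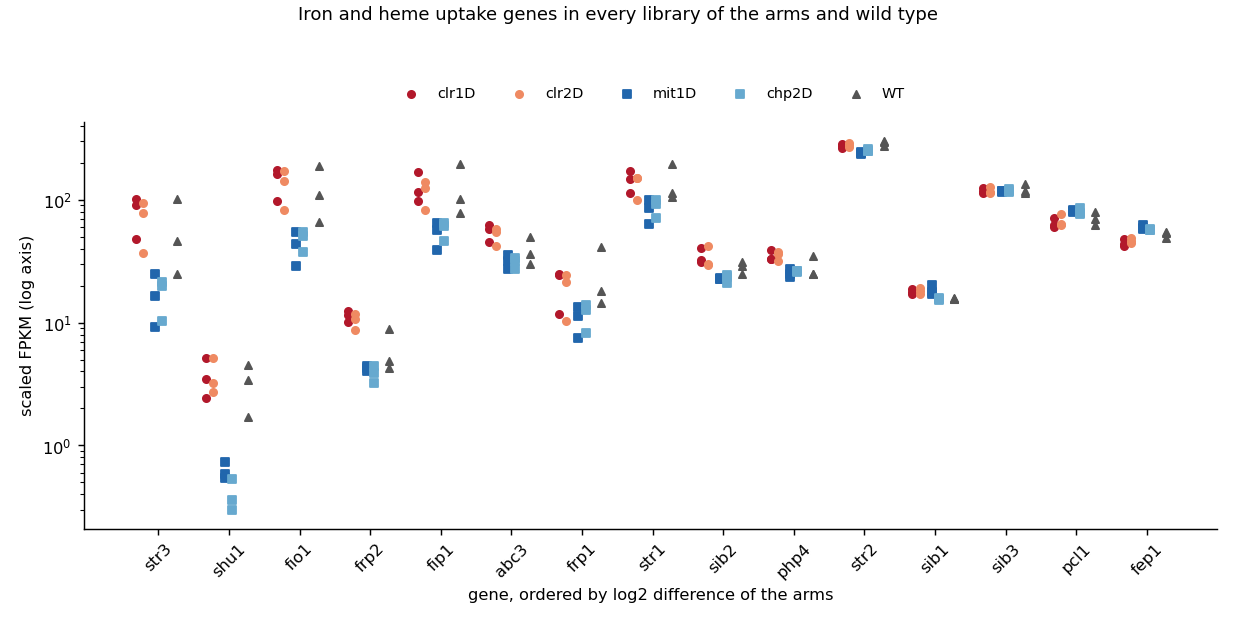
Scaled FPKM on a log axis of the 15 iron and heme uptake genes in each library of clr1D and clr2D (circles), mit1D and chp2D (squares) and wild type (triangles), ordered by the log2 difference between the arms. For str3 the libraries of the Clr1-Clr2 arm span 36.6 to 101, those of the Mit1-Chp2 arm 9.19 to 25.0 and those of wild type 24.7 to 101.

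Of 18 tested genes of hexose transport and gluconeogenesis, 7 were called higher (38.9%) and 6 lower (33.3%), against 28.7% and 28.2% of all genes; with FPKM as deposited the counts were 10 and 4. Besides ght5, the gluconate transporter gene ght3 had 3.44, 4.09 and 6.37 in the Clr1-Clr2 arm and 1.53, 1.68 and 2.17 in the Mit1-Chp2 arm. The glyceraldehyde phosphate dehydrogenase gene gpd3 had 129, 194 and 220 in the Clr1-Clr2 arm and 84.2, 90.9 and 101 in the Mit1-Chp2 arm, a log2 difference of 0.96 ± 0.12, while wild type averaged 316 ± 52.0. The alcohol dehydrogenase gene adh4 and the hexose transporter gene ght8 were lower in the Clr1-Clr2 arm, by -0.69 ± 0.04 and -0.57 ± 0.05 on the log2 scale.

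Of 23 genes of nitrogen response and amino acid transport, 4 were called higher (17.4%) and 9 lower (39.1%), against 28.7% and 28.2% of all genes. The median log2 difference was -0.05, and 0.01 with FPKM as deposited. The NAD-dependent glutamate dehydrogenase gene gdh2 had 74.9, 86.1 and 100 in the Clr1-Clr2 arm and 172, 187 and 203 in the Mit1-Chp2 arm, with a log2 difference of -1.11 ± 0.06 (adjusted p = 6.89e-10). The amino acid transporter gene isp5 ran the other way, at 3.27, 3.79 and 4.82 in the Clr1-Clr2 arm and 1.29, 1.5 and 1.59 in the Mit1-Chp2 arm. Neither gene overlapped between the arms. Of 8 phosphate genes, 2 were called higher (25%) and 4 lower (50%), and with FPKM as deposited 2 and 2. The higher count was 1 without any of clr1D replicates 1 and 3, clr2D replicate 3, mit1D replicates 1 and 2 or chp2D replicates 1 and 3. The phosphate transporter gene pho842 averaged 197 ± 18.4 in the Clr1-Clr2 arm and 114 ± 3.64 in the Mit1-Chp2 arm, whereas tgp1, which encodes a glycerophosphodiester transporter, averaged 13.3 ± 1.08 in the Clr1-Clr2 arm and 22.6 ± 0.73 in the Mit1-Chp2 arm.

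Of 27 core stress genes, 14 were called higher in the Clr1-Clr2 arm (51.9%) and 5 lower (18.5%), against 28.7% and 28.2% of all genes. The median log2 difference was 0.13, and the lower count was 3 without replicate 3 of any of the 4 strains. The calcium pump gene cta3 had 11.4, 18.4 and 26.7 in the Clr1-Clr2 arm and 6.05, 6.23 and 6.73 in the Mit1-Chp2 arm. The sulfiredoxin gene srx1, which serves the repair of oxidised peroxiredoxin, had 61.8, 71.9 and 76.7 in the Clr1-Clr2 arm and 29.8, 33.6 and 36.2 in the Mit1-Chp2 arm, with a log2 difference of 1.06 ± 0.07 (adjusted p = 4.11e-09). The metallothionein gene zym1 was 1.94-fold higher, and its libraries did not overlap between the arms. Among the falls were obr1, at 378 to 446 in the Clr1-Clr2 arm and 514 to 605 in the Mit1-Chp2 arm, and the disaggregase gene hsp104, at 49.2 to 57.1 in the Clr1-Clr2 arm and 61.7 to 69.3 in the Mit1-Chp2 arm. Of 21 chaperone genes, 4 were called higher (19.0%) and 12 lower (57.1%) with a median of -0.14, and with FPKM as deposited 7 and 9. The higher count was 2 without chp2D replicate 1. Hsp90 averaged 964 ± 26 in the Clr1-Clr2 arm and 1263 ± 36.9 in the Mit1-Chp2 arm (SD, n = 6 each). Of 36 proteasome subunit genes, 21 were called higher (58.3%) and 3 lower (8.33%), with a median of 0.08. The core particle gene pup1 averaged 133 ± 3.69 in the Clr1-Clr2 arm and 115 ± 1.49 in the Mit1-Chp2 arm.

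Of 19 tested meiotic regulators and transcripts, 6 were called higher (31.6%) and 4 lower (21.1%), against 28.7% and 28.2% of all genes. With FPKM as deposited the counts were 10 and 4, and with quantile normalization 3 and 5. The gene of Mei2, the RNA-binding protein required for entry into meiosis, had 6.59, 7.58 and 10.5 in the Clr1-Clr2 arm and 1.93, 2.60 and 3.11 in the Mit1-Chp2 arm, with a log2 difference of 1.33 ± 0.15 (adjusted p = 1.93e-06). Wild type averaged 12.5 ± 3.23 for mei2, above the mean of either arm. The meiotic recombinase gene dmc1 was at 19.1 to 22.3 in the Clr1-Clr2 arm and 31.4 to 34.0 in the Mit1-Chp2 arm. Hop1, which encodes a protein of the meiotic chromosome axis, was at 25.7 to 34.1 in the Clr1-Clr2 arm and 42.8 to 49.0 in the Mit1-Chp2 arm, and both genes were called lower in the Clr1-Clr2 arm. Of 113 mug and meu genes, named for their induction in meiosis, 34 were called higher (30.1%) and 21 lower (18.6%). Their higher share was near that of all genes. The median was 0.03, and -0.01 with quantile normalization. With FPKM as deposited the counts were 50 and 12. Among the mug and meu genes, mug14 had 19.6 to 31.9 in the Clr1-Clr2 arm and 6.11 to 8.23 in the Mit1-Chp2 arm. Of 21 mating genes, 3 were called higher (14.3%) and 7 lower (33.3%). The M-factor gene mfm2 averaged 48.2 ± 8.60 in the Clr1-Clr2 arm and 61.6 ± 5.46 in the Mit1-Chp2 arm, with overlap, while wild type averaged 98.5 ± 5.46. With FPKM as deposited, 5 mating genes were called higher and 4 lower.

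Heterochromatin and RNAi factors differed little. Of 30 such genes, 6 were called higher (20%) and 8 lower (26.7%), against 28.7% and 28.2% of all genes. Their median was -0.02 and none reached 2-fold. With FPKM as deposited, 10 were called higher and 4 lower. The gene of Rik1, a subunit of the histone H3 methyltransferase complex CLRC, averaged 21.6 ± 0.337 in the Clr1-Clr2 arm and 18.3 ± 0.369 in the Mit1-Chp2 arm. The telomere-binding protein gene taz1 averaged 15.9 ± 0.753 in the Clr1-Clr2 arm and 19.1 ± 0.641 in the Mit1-Chp2 arm. The sirtuin gene sir2 averaged 21.9 ± 0.507 in the Clr1-Clr2 arm and 24.8 ± 0.992 in the Mit1-Chp2 arm. All 3 were called in each strain pair. Of 11 core histone genes, 2 were called higher (18.2%) and 5 lower (45.5%), and with FPKM as deposited 3 higher and 2 lower. The lower count was 3 without clr1D replicate 3 or clr2D replicate 3. The H2A gene hta2 averaged 229 ± 17.4 in the Clr1-Clr2 arm and 319 ± 7.27 in the Mit1-Chp2 arm.

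Of 139 cytosolic ribosomal protein genes, 22 were called higher (15.8%) and 25 lower (17.99%), against 28.7% and 28.2% of all genes. Fewer of them were thus called, 33.8% against 56.9%. With FPKM as deposited the counts were 67 and 18. The higher count of the main fit was 36 without clr1D replicate 1 and 10 without the mit1D strain. The lower count of the main fit was 39 without clr1D replicate 2. Of 36 genes encoded in the mitochondrial genome, 3 were called higher (8.33%) and 12 lower (33.3%) with a median of -0.13, and with FPKM as deposited 4 and 5. The higher count was 0 without clr1D replicate 3 or chp2D replicate 3 and 1 without clr2D replicate 2, mit1D replicate 1 or mit1D replicate 2. Non-coding RNAs had 450 called higher (31.2%) and 369 lower (25.6%) among 1441, shares near those of all genes; the counts were 606 and 230 with FPKM as deposited and 397 and 444 with quantile normalization. Small nucleolar and spliceosomal RNAs had 21 called higher (35%) and 8 lower (13.3%) among 60. Of these, snoR69b averaged 135 ± 9.09 in the Clr1-Clr2 arm and 74.3 ± 7.61 in the Mit1-Chp2 arm.

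**Figure D4:**
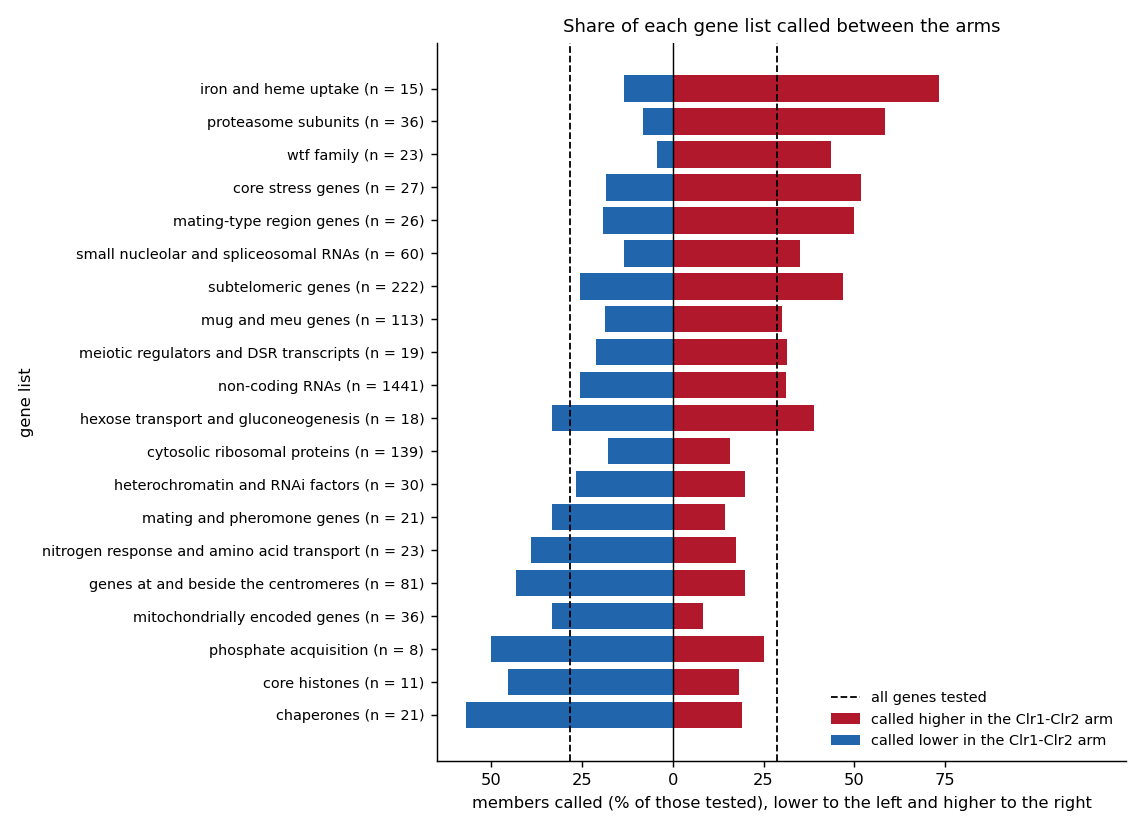
Share of each gene list called higher (bars to the right) and lower (bars to the left) in the Clr1-Clr2 arm, as a percentage of the members tested, with the shares over all genes as dashed lines at 28.7% and 28.2%. Iron and heme uptake stands at 73.3% higher and 13.3% lower, and chaperones at 19.0% higher and 57.1% lower.

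Heterochromatic regions did not move one way. Windows of 100 kb at the 6 ends of the nuclear chromosomes held 222 tested genes. Of these, 104 were called higher (46.8%) and 57 lower (25.7%), against 28.7% and 28.2% of all genes. By 2-fold, 19 were higher and 10 lower, against 56 and 36 of all 6670 genes. Of the 202 end genes that met the minimum level in each arm, 90 were called higher and 52 lower. The same counts over all genes were 1879 and 1875 of 6599. The median log2 difference at the ends was 0.09. The ends differed among themselves. Within 50 kb, a window chosen after the values were seen, the left end of chromosome III had 15 called higher and 0 lower of 16, the right end of III 14 and 2 of 21, the right end of II 9 and 0 of 10, and the right end of I 7 and 3 of 12. The left end of I had 2 called higher and 7 lower of 11, and the left end of II 0 and 4 of 5. Some of these genes were kept through 1 arm alone. Among genes at the minimum level in each arm, the left end of I had 2 called higher and 4 lower of 8. The left end of II had 0 and 3 of 4, the right end of I 5 and 3 of 10, and the left end of III 14 and 0 of 15. The right ends of II and III kept their counts. The majority direction of each end was the same with unscaled FPKM, with quantile normalization and with voom on recovered reads.

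At the left end of III, the non-coding RNA meu3 (III:41985-42728) had 5.13, 6.13 and 7.17 in the Clr1-Clr2 arm and 1.21, 1.60 and 2.17 in the Mit1-Chp2 arm, 3.74-fold higher. SPCP20C8.03, also at this end, averaged 25.1 ± 1.67 in the Clr1-Clr2 arm, 12.4 ± 0.901 in the Mit1-Chp2 arm and 11.3 ± 0.273 in wild type. At the right end of I, the pyruvate decarboxylase gene pdc102 averaged 4.59 ± 0.541 in the Clr1-Clr2 arm, 1.09 ± 0.115 in the Mit1-Chp2 arm and 1.09 ± 0.263 in wild type. At the right end of II, the galactose utilisation gene gal1 averaged 18.2 ± 2.36 in the Clr1-Clr2 arm and 12.9 ± 0.591 in the Mit1-Chp2 arm. Examples of these ends were chosen after their values were seen.

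The RecQ-type helicase genes tlh1 and tlh2, which lie next to the telomeres, are near-identical copies, so that the split of reads between them is uncertain. Tlh2 (II:4526885-4532899) had 4.79, 5.50 and 5.92 in the Clr1-Clr2 arm, 1.97, 2.50 and 2.88 in the Mit1-Chp2 arm, and 0.147 to 0.186 in wild type. The arms did not overlap, with a 2.18-fold higher mean in the Clr1-Clr2 arm and a log2 difference of 0.88 ± 0.06 (adjusted p = 7.87e-09). Each library of either arm lay above all wild-type libraries. Tlh1, at the left end of I, missed the minimum level and was not tested; it had 0.559 to 0.611 in the Clr1-Clr2 arm, 0.286 to 0.58 in the Mit1-Chp2 arm and 0.00776 to 0.0139 in wild type.

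**Figure D5:**
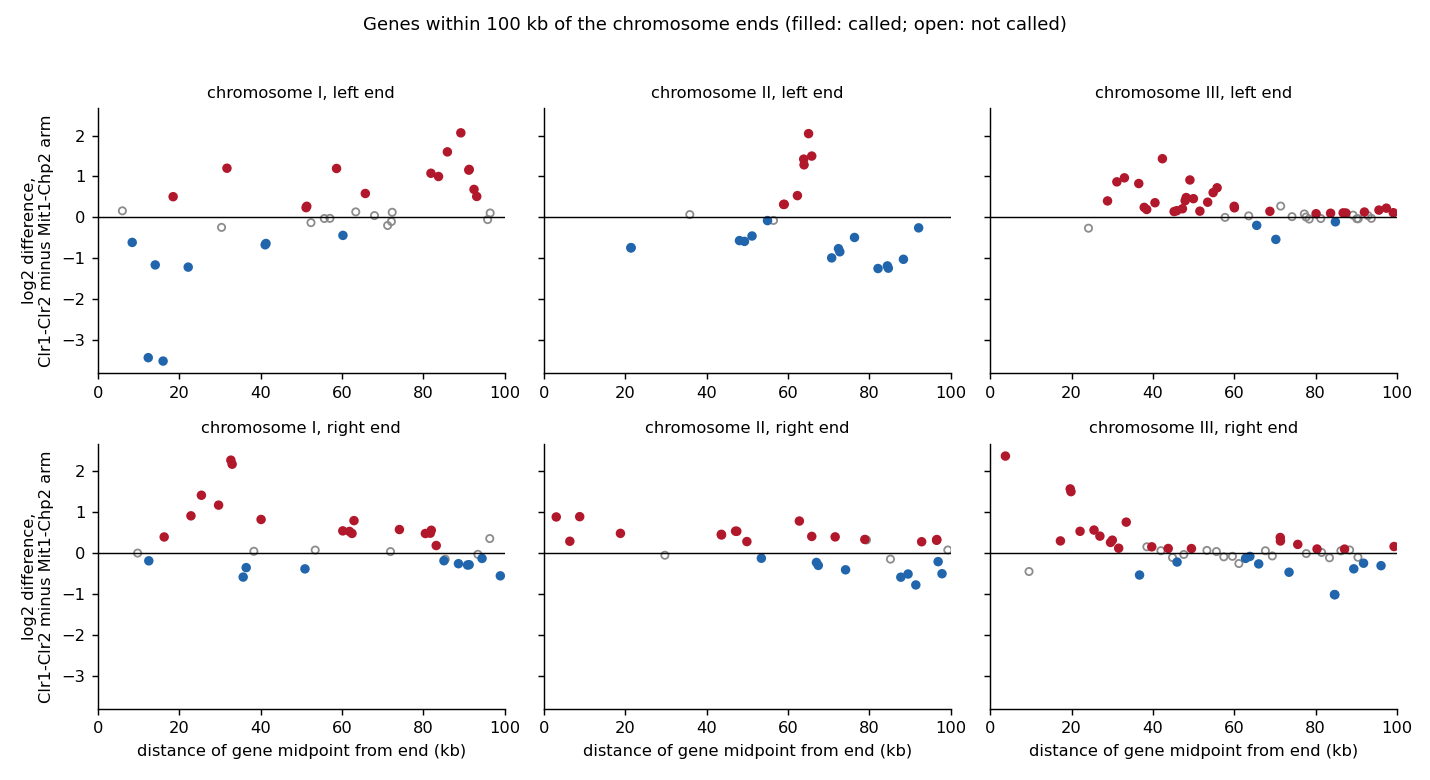
Log2 difference between the arms of each gene against the distance of its midpoint from the chromosome end, up to 100 kb, for both ends of chromosomes I to III; filled points are called genes and open points are not. At the left end of I the farthest points below 0 are SPAC212.12 at -3.52 and SPAC212.08c at -3.44, and at the left end of III 15 of 16 genes within 50 kb are called and lie above 0.

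Of 81 tested genes at and beside the centromeres, 16 were called higher (19.8%) and 35 lower (43.2%), against 28.7% and 28.2% of all genes. Of the falls, 5 were by 2-fold, and the median of the 81 genes was -0.05. With FPKM as deposited the counts were 26 and 29. In the main fit, 76 of these genes met the minimum level in each arm, of which 14 were called higher and 35 lower. Of 26 genes in the mating-type region, 13 were called higher (50%) and 5 lower (19.2%), by at most 1.64-fold. Without the clr2D strain 4 were called higher, with strain as a random block 7, and with FPKM as deposited 17 higher and 2 lower. The gene at 1.64-fold, the non-coding RNA SPNCRNA.388, averaged 4.77 ± 1.31 in the Clr1-Clr2 arm and 2.91 ± 0.516 in the Mit1-Chp2 arm, and its arms overlapped. Within the Clr1-Clr2 arm, SPNCRNA.388 averaged 3.68 ± 0.532 in clr1D and 5.86 ± 0.676 in clr2D, which did not pass the test between the strains (adjusted p = 0.0649). Rpt6, a proteasome ATPase gene of the same stretch, was called between them and averaged 113 ± 4.81 in clr1D and 168 ± 10.8 in clr2D.

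Of the Tf2 retrotransposons, 3 of 13 annotated copies were tested and 1 of them, Tf2-11, met the minimum level in each arm; since copies are alike their split is uncertain. Tf2-13 (III:2320320-2324320) had 0.899, 1.01 and 1.14 in the Clr1-Clr2 arm and 0, 0.0251 and 0.0941 in the Mit1-Chp2 arm, from 0 to 11 reads. It was at 0.0327 ± 0.00549 in clr3D and at 0.962 ± 0.0227 in wild type, so clr3D stood with the Mit1-Chp2 arm and wild type with the Clr1-Clr2 arm. Tf2-10 was 1.90-fold lower and Tf2-11 1.38-fold higher in the Clr1-Clr2 arm, and Tf2-11, which adjoins SPBC1289.14, averaged 10.7 ± 1.13 in the Clr1-Clr2 arm, 7.73 ± 1.34 in the Mit1-Chp2 arm and 4.58 ± 1.14 in wild type. Of 23 tested wtf genes, a repeated family of meiotic drivers and their suppressors, 10 were called higher (43.5%) and 1 lower (4.35%). Over all genes the shares were 28.7% and 28.2%. With quantile normalization the wtf counts were 6 and 5. Without chp2D replicate 3 the lower count of the main fit was 2. Wtf20 averaged 3.40 ± 0.461 in the Clr1-Clr2 arm and 2.07 ± 0.147 in the Mit1-Chp2 arm.

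The auxotrophic marker genes differed by at most 1.27-fold apart from his7. Every strain lists his3 and arg3 in a deletion form, yet both genes kept reads, unlike ura4. For his3 these were 1036 to 2774 reads per library in the Clr1-Clr2 arm and 662 to 1244 in the Mit1-Chp2 arm. For arg3 they were 201 to 513 and 133 to 237. The reason was not tested, so these values need not be levels of intact genes. His3 was at 20.2, 22.7 and 23.1 in the Clr1-Clr2 arm and 16.3, 17.2 and 18.9 in the Mit1-Chp2 arm, and leu1 averaged 488 ± 26.1 in the Clr1-Clr2 arm and 528 ± 8.57 in the Mit1-Chp2 arm. Ade6, for which the labels list different alleles in the strains of the Clr1-Clr2 arm, was at 103 to 120 in the Clr1-Clr2 arm and 110 to 114 in the Mit1-Chp2 arm, with overlap and no call (adjusted p = 0.801). Arg3 averaged 3.31 ± 0.178 in the Clr1-Clr2 arm and 2.85 ± 0.182 in the Mit1-Chp2 arm, with an adjusted p of 0.0187 and 1 of 4 strain pairs called; with quantile normalization its log2 difference was -0.03, against 0.16.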

How the data were processed

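RNA of 18 yeast libraries was depleted of rRNA and made into stranded total RNA libraries, per the labels' protocols. Reads were aligned with GSNAP, per the submitters' processing notes, and the authors deposited FPKM per gene. The counting program and its use of strand were not given in the sources used here. The table's FPKM steps gave whole reads within 0.1 read for all values. A further 3 sample columns that no label names were not used.

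FPKM was divided by a median-ratio factor from 6484 genes. Log2(scaled FPKM + 1) was fitted with limma 3.58.1 (R 4.3.3; empirical Bayes with a mean trend) over all 18 libraries, 1 coefficient per strain, with Benjamini-Hochberg adjustment over 6670 genes. A separate fit of the same form was run on simulated data, with noise drawn independently for each library, unlike the paired libraries here. Each arm is the mean of its strains. Figures and summaries used Python 3.11.15, pandas 2.3.3, NumPy 2.4.6 and matplotlib 3.10.9. Of the identifiers, 6844 matched RefSeq annotation, which gave 4410 symbols; 3 listed genes found no match, and symbols that belong to another gene were dropped. Coordinates are those of the table; promoter windows are of ASM294v3, where 6798 of 6971 nuclear genes share a boundary with the table.

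Genes were named by rule: the 5 SHREC genes, tlh1 and tlh2, markers, the 12 largest concordant rises and falls, up to 3 of the farthest called genes in each of 23 lists, and the neighbours of the threshold. Other genes were chosen after their values were seen. The members and lists were chosen with earlier results of these data known. Same-numbered libraries deviated together within the first library series (correlation 0.54 to 0.72 between clr1D and clr2D, 0.25 to 0.57 between these strains and wild type), so there the numbers pair the samples. Across the arms the correlations were -0.15 to 0.04. The labels call the replicates biological; nothing else is said of their source.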

Additional observations from a re-analysis of the deposited data

Results flagged for a closer look

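Beside the deleted genes themselves, the strains of an arm differed in 8 named genes, by the limma contrast of the strains over all genes. On the log2 scale, clr1D minus clr2D, his7 stood at -1.20 (adjusted p = 2.04e-12), lys1 at -2.09 (3.04e-11), prm1 at -1.99 (3.04e-11), per1 at -1.09 (2.77e-05), cbm1 at -1.10 (0.0312) and rpt6 at -0.57 (2.24e-06). The values were lower in clr1D for all 6, and his7 is the marker of the clr2D deletion. Mit1D minus chp2D stood at -4.20 for SPCC663.08c (adjusted p = 3.07e-09) and at -3.55 for SPNCRNA.1213 (1.17e-08), which overlap.

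In 5 of 160 arm groups of 6 libraries, 1 library lay far from the nearest of the others relative to the range, as chance gives in about 1 of 20. They were hht2 in mit1D replicate 2 at 416.8 scaled FPKM, taz1 in the same library at 20.37, rpl4102 in mit1D replicate 1 at 1790, zym1 in clr1D replicate 3 at 19.94 and pam1 in clr1D replicate 2 at 108. The libraries of the arms did not overlap for any of these 5 genes.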

How the results depend on the processing

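Of 2436 values of 85 named genes under 29 alternatives, 2399 kept their direction and their side of the threshold, 23 lost the call, 12 gained one and 2 turned. Those that turned were mit1, at -0.00183 without mit1D against 1.91, and arg3, at -0.028 with quantile normalization against 0.16. The calls between the arms were 2966 higher and 1069 lower with FPKM as deposited, and the cause was not tested beyond the median shift of all genes. Genes higher by 2-fold were 89 with a pseudocount of 0.1, 21 with a pseudocount of 5 and 92 with voom on recovered reads, against 56; the pseudocount sets how far weak genes move. The Clr1-Clr2 arm against wild type had 2362 calls with the library prefix as a random block, added after the data were seen, against 1500.

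Leaving out 1 library gave 3539 to 3665 calls between the arms, 1780 to 1840 higher, 1758 to 1839 lower, 50 to 60 higher by 2-fold, 36 to 41 lower by 2-fold and 1589 to 1770 in all 4 strain pairs. The arms against wild type gave 1309 to 1428 calls (Clr1-Clr2) and 1894 to 2209 (Mit1-Chp2), clr1D against clr2D 29 to 33 and mit1D against chp2D 8 to 12. With the replicate block, which pairs libraries within the first series only, 4066 genes were called between the arms, 2061 higher and 2005 lower, and no count over all genes moved by more than 1.5 times; of the lists, the higher mating genes were 5 with the block, against 3. The Tf2-11 difference was not called without chp2D (adjusted p = 0.0748). The count of concordant genes was not computed where a strain was left out or strain was a random block. Arm, library series and listed alleles cannot be told apart, and weak genes rest on few reads.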

Other observations

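The amine oxidase gene cao1 (I:2931763-2935115) averaged 32.0 in clr1D, 70.0 in clr2D, 36.2 in mit1D, 34.1 in chp2D, 79.2 in clr3D and 75.8 in wild type, so clr1D stood with the Mit1-Chp2 arm. Its neighbour cbm1, next to it on the chromosome, averaged 25.2 in clr1D, 54.6 in clr2D, 131 in mit1D, 123 in chp2D, 53.1 in clr3D and 138 in wild type, a different order. The non-coding RNAs SPNCRNA.861 and SPNCRNA.862 of the same stretch averaged 22.4 and 165 in clr1D, 45.2 and 337 in clr2D, 23.5 and 215 in mit1D, and 40.3 and 314 in wild type.

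The gene nbr1, next to mit1, averaged 105 in mit1D and 20.3 in chp2D, and usp103, on the other side, averaged 40.6 in mit1D and 22.0 in chp2D. The gene ccc2, next to his7, averaged 46.3 in clr1D and 73.3 in clr2D. The peroxisomal import receptor gene pex7 averaged 86.7 in clr1D, 107.2 in clr2D, 220 in mit1D, 227 in chp2D, 166 in clr3D and 226 in wild type. Near the right end of chromosome II, SPBCPT2R1.07c averaged 4.42 in clr1D, 2.06 in clr2D, 1.34 in mit1D, 1.07 in chp2D and 0.0597 in wild type (scaled FPKM, n = 3 each). All were called between the strains of an arm by limma.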
